A study of Homo sapiens with 28 samples.

Results

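Wild-type K562 cells were compared with wild-type HepG2 cells for the positions of N6-methyladenosine (m6A) on chromatin-associated RNA (caRNA). K562 is a chronic myelogenous leukaemia line with erythroid and megakaryocytic features, and HepG2 is a hepatoma line with many hepatocyte genes switched on. The members were the peaks of the 4 immunoprecipitation (IP) lists labelled WT, 2 for each line, out of 14 IP lists in the series. No knockdown, hairpin or other agent was recorded for these 4 libraries. For a check of the regions in other libraries, 10 further IP lists were used, all from cells that carried a short hairpin RNA: 2 Control and 2 RBFOX2 knockdown (KD) libraries of K562, and 3 Control and 3 RBFOX2 KD libraries of NB4, an acute promyelocytic leukaemia line. Peaks on chromosomes 1 to 22 and X were merged by strand wherever they overlapped, which gave 56898 regions on hg38. A region was called K562-only or HepG2-only when both libraries of that line and neither library of the other had a peak there, and shared when all 4 had one. Each group was a single cell line, HepG2 grown in DMEM and K562 in RPMI, so that line and culture medium cannot be told apart. No source used here states that the libraries of a line came from separate cultures, so that p-values measure the spread between these libraries, which may be technical.

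m6A is placed on RNA during transcription by a complex built around METTL3 and METTL14, mostly at an adenosine within a short consensus of which GGACU is the commonest form. In messenger RNA it is known for its concentration in long internal exons and near stop codons, and reader proteins with a YTH domain bind it. Chromatin-associated RNA is rich in nascent, unspliced transcripts, and so also carries m6A in introns and in noncoding RNAs. In methylated RNA immunoprecipitation sequencing (MeRIP-seq) a peak needs both a methylated and an abundant enough transcript, so that a missing peak and a missing transcript cannot be told apart in a peak list.

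The K562 lists held 44043 and 43357 peaks and the HepG2 lists 22635 and 27358, with no overlap between the lines. A depth back-calculated from the fold and -log10 p was 25.7 and 25 M effective reads in K562 (M being mega-reads). In HepG2 it was about 28.0 and 31.4 M, but pileups there were not whole and reads may have been rescaled. It is not a count of reads, so that the lines cannot be ranked by sequencing depth from it. The median fold at the summit was 5.68 and 5.70 in K562 and 3.84 and 4.03 in HepG2. Between 2 and 2 libraries the exact permutation test cannot go below 0.33 (two-sided), and the difference in peak number reached that value. Of 11 marker genes of K562, 11 and 11 had a peak in the K562 libraries and 1 and 2 in the HepG2 libraries. Of 11 marker genes of HepG2, 2 and 2 had a peak in the K562 libraries and 6 and 9 in the HepG2 libraries, while the defining markers ALB and AFP had none in any library.

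K562-only regions numbered 21644 (38.0% of all regions), HepG2-only regions 5708 (10.0%) and shared regions 13184 (23.2%). The remaining 16362 (28.8%) were found in some other combination of libraries. The most frequent of these were 4256 regions in K562 WT 1 alone, 3603 in K562 WT 2 alone, 3603 in HepG2 WT 2 alone and 2507 in both K562 libraries and HepG2 WT 2. The excess of K562-only over HepG2-only regions depended on the length of the lists: with every list cut to its 22635 highest peaks, 8514 K562-only and 7012 HepG2-only regions were left beside 9818 shared ones. Without HepG2 WT 1 the HepG2-only count was 9422.

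**Figure D1:**
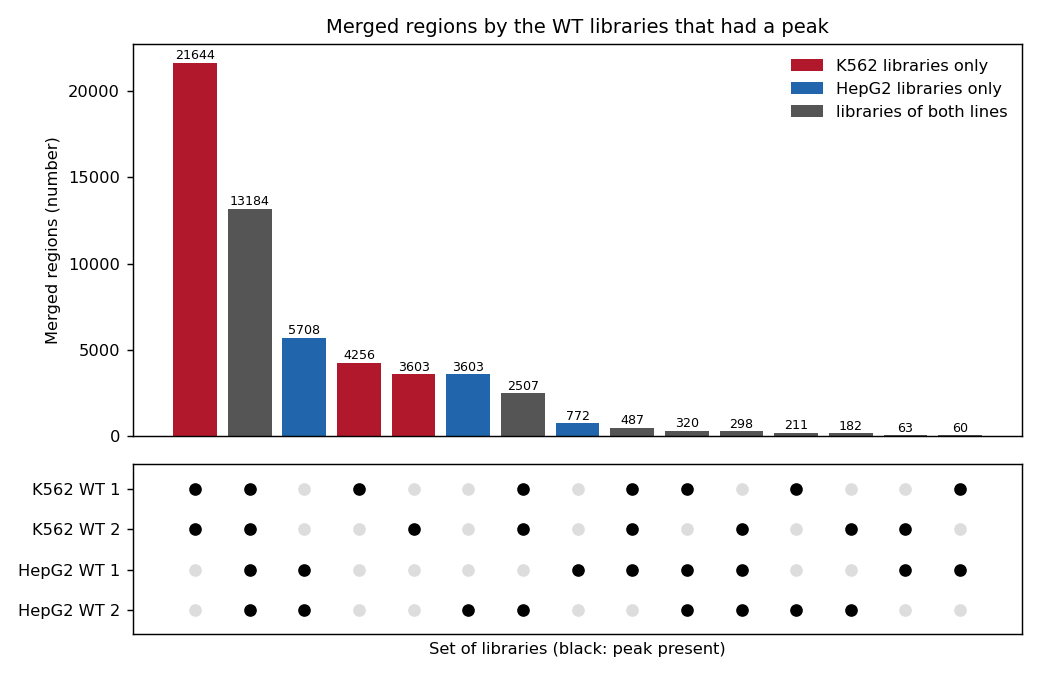
Number of merged regions (vertical axis) for each set of WT libraries that had a peak there; black dots below each bar mark the libraries of the set. The bar for both K562 libraries (21644 regions) is the tallest, followed by all 4 libraries (13184) and both HepG2 libraries (5708).

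Sequences at some of the regions described below are shown because they carry the m6A consensus close to the peak summit. Among the 12 K562-only regions highest in their lists, 5 held GGACT, the DNA form of that consensus, on the transcribed strand within 75 bases of the summit, and among the 12 HepG2-only regions it was 5. Each line gives 29 bases of hg38, 5′ to 3′ on the transcribed strand, with the GGACT nearest the summit in capitals. KLF1, TEC, ZFYVE28 and BTNL9 were K562-only, PLEKHG3, TACC2, ANKS4B and GDF7 were HepG2-only, and CISH and SLC22A18 were shared but ranked higher in K562 and in HepG2.
KLF1 (chr19:12884742-12884770, minus strand): ggaccctctcctGGACTcgcgttcccaaa
TEC (chr4:48136281-48136309, minus strand): ggaggcctggttGGACTtgggttcctgga
ZFYVE28 (chr4:2304743-2304771, minus strand): gcccacttccctGGACTctgcggtcgcca
BTNL9 (chr5:181059869-181059897, plus strand): ctcgtggccgcgGGACTggccccgggggg
PLEKHG3 (chr14:64743565-64743593, plus strand): ggggcaggttcaGGACTtccagcagtctg
TACC2 (chr10:122211175-122211203, plus strand): cggggggcaagaGGACTctccagccaaag
ANKS4B (chr16:21250066-21250094, plus strand): aggaggaatccgGGACTctctcttcttcc
GDF7 (chr2:20671128-20671156, plus strand): gccgttgcacgtGGACTtcaaggagctcg
CISH (chr3:50607527-50607555, minus strand): tcagccccagctGGACTtgggcccccact
SLC22A18 (chr11:2920472-2920500, plus strand): ctgtgttgtgggGGACTtgggcctgccat
In KLF1, TACC2, CISH and the others the match is a description of the sequence and not a mapped methylated base. Over all peaks, a window of 75 bases to either side of the summit held GGACU in 25.5% and 25.5% of cases in the K562 libraries and in 23.4% and 22.1% in the HepG2 libraries. The K562 values lay above both HepG2 values, by 2.77 points on average (two-sided exact permutation test, p = 0.33, the floor of the design). Windows of the same length 300 bases away held it in 11.6% and 11.7% in K562 and in 12.5% and 12.3% in HepG2. By class, GGACU was present in 25.6% of K562-only, 21.1% of HepG2-only and 27.5% of shared regions.

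The height of a region is given here as the percentile of the -log10 q within a library's list, 100 being the top. KLF1, the erythroid Krüppel-like transcription factor, had a K562-only region in its last exon (exon 3 of 3, 3′ UTR) at percentiles 99.6 and 99.9 in the K562 libraries. TEC, a cytoplasmic tyrosine kinase of haematopoietic cells, had one in its 3′ UTR (exon 18 of 18) at 99.9 and 99.7. ZFYVE28, an endosomal FYVE-domain protein, reached 99.9 and 99.9 in the coding sequence of exon 8, and BTNL9, a butyrophilin-like membrane protein, 99.9 and 99.9 in its 3′ UTR. All 4 were named for standing near the very top of the K562 lists with no peak in either HepG2 list. VIM-AS1, a noncoding RNA antisense to the intermediate filament gene VIM, had a region in its first exon with -log10 q values of 717 and 781. The others named by the same rule included HSPA6 (an inducible heat shock protein), N4BP3, THEMIS2, AKR1E2 and the noncoding genes ENSG00000290113 and ENSG00000255026. Each of the regions just named had a peak in 4 of 4 K562 libraries that carried a hairpin, which the choice of regions did not use. In the 6 libraries of NB4 the regions of KLF1, BTNL9 and AKR1E2 had 0 peaks and those of TEC, ZFYVE28, HSPA6, N4BP3 and THEMIS2 had 6.

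Coding sequence held 18.2% of all regions and 17% of HepG2-only regions. Of the 12 highest K562-only regions, those of ZFYVE28, HSPA6, N4BP3 and THEMIS2 lay in coding sequence. Of the 12 highest HepG2-only regions, 8 lay in coding sequence. ONECUT1, a hepatic cut-homeobox transcription factor, had one over the coding sequence of exon 1 at percentiles 99.5 and 99.8 in the HepG2 libraries, and no peak of the gene was found in K562. ANKS4B, a scaffold protein of the epithelial brush border, reached 99.4 and 99.9 in exon 2 of 2. GDF7, a ligand of the bone morphogenetic protein family, reached 99.4 and 99.4 in exon 2 of 2. The regions of these 3 genes had a peak in both HepG2 libraries and in 0 of 10 hairpin libraries of K562 and NB4. ADCY9, a membrane adenylyl cyclase, had the highest HepG2-only region of all, in the coding part of its last exon (exon 11 of 11), with -log10 q values of 161 and 330. Unlike ONECUT1, ADCY9 had other peaks in all 4 WT libraries, and is counted below among the genes with peaks in all 4. PDE9A (a cyclic GMP phosphodiesterase, in intron 3), PLEKHG3 (exon 17 of 17), TACC2 (exon 9) and NEDD9 (exon 7 of 7) also had high HepG2-only regions, and these 4, like ADCY9, were called in 6 of 6 NB4 libraries and in 0 of 4 K562 hairpin libraries. ARHGAP29, a GTPase-activating protein, reached 99.9 and 99.4 in exon 23 of 23, OXER1, a receptor for oxoeicosanoids, 99.6 and 99.7, and CPLX1, a regulator of vesicle fusion, 99.9 and 99.1 in intron 2.

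The classes were next read in hairpin libraries that had no part in their definition. The 4 K562 hairpin libraries are of a line whose WT lists set all 3 classes. The direction of the differences between K562 and NB4 was thus largely set by the rule, and the p-values are not independent support for it. K562-only regions were overlapped by a peak in 61.8% ± 2.50 of cases in the 4 K562 hairpin libraries and in 26.5% ± 3.25 in the 6 NB4 libraries (SD), of which 2 and 3 were RBFOX2 KD libraries. HepG2-only regions were overlapped in 5.79% ± 2.15 and 16.6% ± 1.9, and shared regions in 87.4% ± 1.27 and 78.0% ± 3.54. The 4 K562 and the 6 NB4 values did not overlap in any of the 3 classes (two-sided exact permutation test, adjusted p = 0.00476 each, the lowest value that 4 against 6 allow). The hairpin lists of K562 held 35577 to 38576 peaks and those of NB4 29511 to 39707. Of the K562-only regions, 10383 (48.0%) were present in all 4 K562 hairpin libraries and 5616 (25.9%) in none of them. Of the HepG2-only regions, 5043 (88.3%) were present in none of the 4, 115 (2.01%) in all of them and 561 (9.83%) in all 6 NB4 libraries. With the 2 K562 and 3 NB4 Control libraries alone the differences were 37.8, -8.36 and 12.5 points, where 0.100 is the smallest p the test allows.

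**Figure D2:**
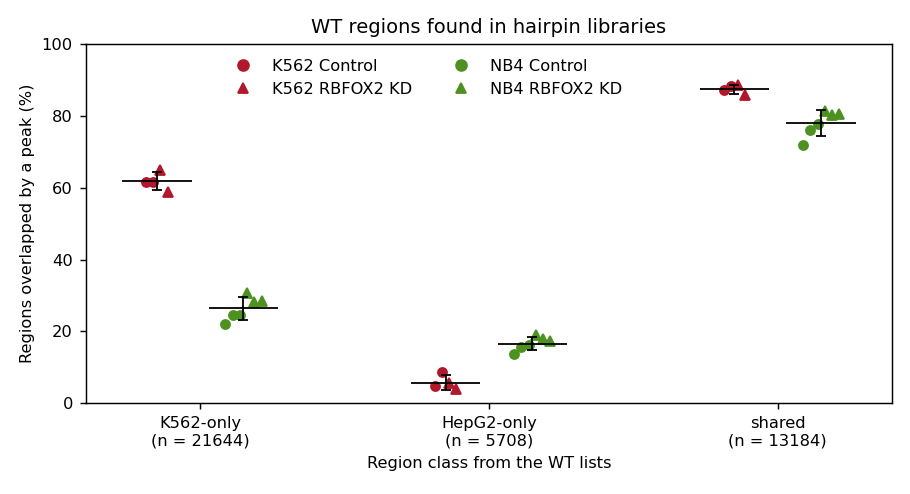
Percentage of K562-only, HepG2-only and shared WT regions overlapped by a peak in each hairpin library; circles are Control and triangles RBFOX2 knockdown libraries, red K562 and green NB4, with mean and SD in black. Red points lie above green for K562-only regions (means 61.8% and 26.5%) and below for HepG2-only regions (5.79% and 16.6%).

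The gene part under the summit differed between the lines. Coding sequence held 19.1% and 19.2% of K562 peaks and 27.9% and 27.4% of HepG2 peaks. The 3′ UTR held 9.45% and 9.60% in K562 and 13.7% and 12.5% in HepG2. Both parts were thus larger in each HepG2 library than in each K562 library, while the 5′ UTR (3.56% and 3.51% in K562, 2.72% and 2.91% in HepG2) and noncoding exons (5.48% and 5.46%, 5.11% and 4.77%) were smaller. Introns on the sense strand held 43.5% and 43.2% of K562 peaks and 36.7% and 38.9% of HepG2 peaks, and intergenic sequence 7.75% and 7.68% against 3.97% and 3.74%. The differences (K562 minus HepG2) were -8.46 points for coding sequence, -3.55 for the 3′ UTR, 5.59 for introns and 3.86 for intergenic sequence, against pooled SDs of 0.276, 0.626, 1.10 and 0.124. Each was at the smallest p the design allows (two-sided exact permutation test, adjusted p = 0.33 over 9 gene parts). In lists of equal length the coding difference was -3.43 and the intron difference 1.71 points, while peaks antisense within a gene (0.887) and downstream of a gene end (0.189) turned to -0.769 and -0.574.

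Shared regions were the most exonic. Coding sequence held 33.1% of shared, 17% of HepG2-only and 10.9% of K562-only regions. Sense introns held 31.7%, 43.1% and 48.7% in the same order, and intergenic sequence 2.17%, 7.62% and 11.7%. Over all regions these shares were 18.2% for coding sequence, 44.8% for sense introns and 7.65% for intergenic sequence, so that HepG2-only regions were close to all regions while K562-only regions held less coding sequence and more of the others. Shared regions were also wider, with a median of 627.5 bases against 311 for K562-only and 344.5 for HepG2-only regions. They stood higher in the lists, at median percentiles of 77.8 and 77.4 in K562 and of 61.5 and 67.5 in HepG2. A shared region joins the peaks of 4 libraries and a line-only region those of 2, and it had to be called in every list. Width and height are therefore not independent of the class, and the gene parts of the classes were not compared at equal height or list length. K562-only regions had median percentiles of 44.2 and 43.3 and HepG2-only regions of 41.6 and 47.3. Of sense-strand K562-only regions in genes, 6623 of 16163 (41.0%) lay in a gene with peaks in all 4 libraries, and 73.2% of those were intronic. For HepG2-only regions it was 1650 of 4361 (37.8%), of which 67.2% were intronic.

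**Figure D3:**
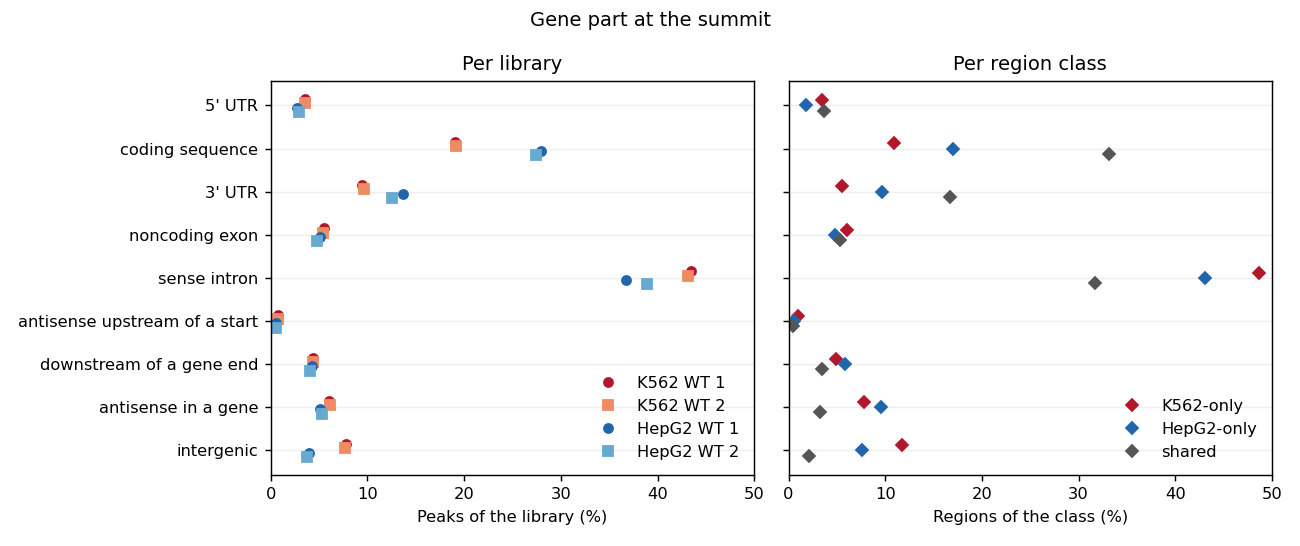
Percentage of peaks by gene part at the summit for each WT library (left) and percentage of regions for each class (right). HepG2 libraries lie to the right of K562 libraries for coding sequence and 3′ UTR and to the left for sense introns and intergenic sequence; shared regions have the largest coding share, 33.1%.

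Of 19970 protein-coding genes, 2466 (12.3%) had sense-strand peaks in both K562 libraries and neither HepG2 library, 900 (4.51%) in both HepG2 libraries and neither K562 library, and 6168 (30.9%) in all 4. With lists of equal length, 1422 and 1306 genes were K562-only and HepG2-only. Of 18756 lncRNA genes, 1164 (6.21%) were K562-only, 295 (1.57%) HepG2-only and 825 had peaks in all 4. The counts below are to be read against these shares. The gene lists were chosen with earlier results of these data known, so that an excess over the shares is a description and not a test.

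Liver transcription factors were HepG2-only in 12 of 24 cases, with peaks in all 4 libraries for 8 and K562-only for 0. The nuclear receptor NR5A2, a regulator of bile acid genes, reached 96.8 and 95.5, and CEBPA, a leucine zipper factor of hepatocytes, 94.2 and 83.0. GATA4, PROX1 and TBX3 were HepG2-only at 84.9 or above in each HepG2 library. The pioneer factors FOXA1, FOXA2 and FOXA3 and the nuclear receptor HNF4A had peaks in all 4 libraries. FOXA1 was at the bottom of the K562 lists (3.55 and 7.77) and near the top of the HepG2 lists (96.9 and 99.0). HHEX, a homeobox factor that haematopoietic cells use too, was at 91.1 and 91.1 in K562 and at 88.0 and 87.7 in HepG2.

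Among 40 secreted proteins of hepatocytes, 15 genes were HepG2-only, 1 was K562-only and 2 had peaks in all 4 libraries. HP (haptoglobin) had 1 peak in each HepG2 library, over exon 7 of 7, at percentiles 94.2 and 98.0. TF (transferrin) was at 87.7 and 93.6, and the coagulation genes F5 and F10 at 91.7 and 90.1 and at 85.8 and 93.9. No K562 library had a peak in these 4 genes. A further 9 of the 40 had a peak in HepG2 WT 2 and not in HepG2 WT 1, among them APOB with 11 peaks and APOA1 with 2, and without HepG2 WT 1 the HepG2-only count was 23. Of 36 genes of liver metabolism and transport, 10 were HepG2-only, among them the asialoglycoprotein receptor gene ASGR2 (72.3 and 85.4) and G6PC1, the glucose-6-phosphatase gene (81.7 and 68.0). The lipase gene LIPC and the cytochrome gene CYP3A5 of that list were K562-only.

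Among 15 oncofetal and imprinted genes, 4 were HepG2-only, 0 K562-only and 5 had peaks in all 4 libraries. The retrotransposon-derived imprinted gene PEG10 reached 96.2 and 99.1 in HepG2, and GPC3, a glypican made by fetal liver and hepatomas, 72.8 and 84.6. IGF2BP3, an RNA-binding protein of fetal tissue that is also known as an m6A reader, was at 98.0 or above in each of the 4 libraries. Of 25 epithelial junction and keratin genes, 6 were HepG2-only, including the tight junction gene OCLN (73.9 and 72.2) and the epithelial splicing regulator ESRP2 (84.8 and 89.2), and 0 were K562-only.

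Erythroid and megakaryocyte regulators were K562-only in 9 of 26 cases and HepG2-only in 0, and 12 had peaks in all 4 libraries. TAL1, a basic helix-loop-helix factor of blood stem cells and erythroid cells, was at 99.5 and 99.5 in its 3′ UTR (exon 5 of 5). GATA1, the zinc finger factor that directs erythroid genes, had 9 and 6 peaks in K562 with tops of 95.2 and 97.0 in intron 1. CBFA2T3, a corepressor that binds TAL1 complexes, had 20 and 22 peaks (97.1 and 97.8). None of these 3 genes had a peak in HepG2. GATA2, a related factor of blood progenitors, had peaks in all 4 libraries, at 96.0 and 96.1 in K562 and at 91.5 and 91.8 in HepG2. LYL1, a relative of TAL1, was at 98.1 and 99.0 in K562 and at 46.0 and 50.9 in HepG2.

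**Figure D4:**
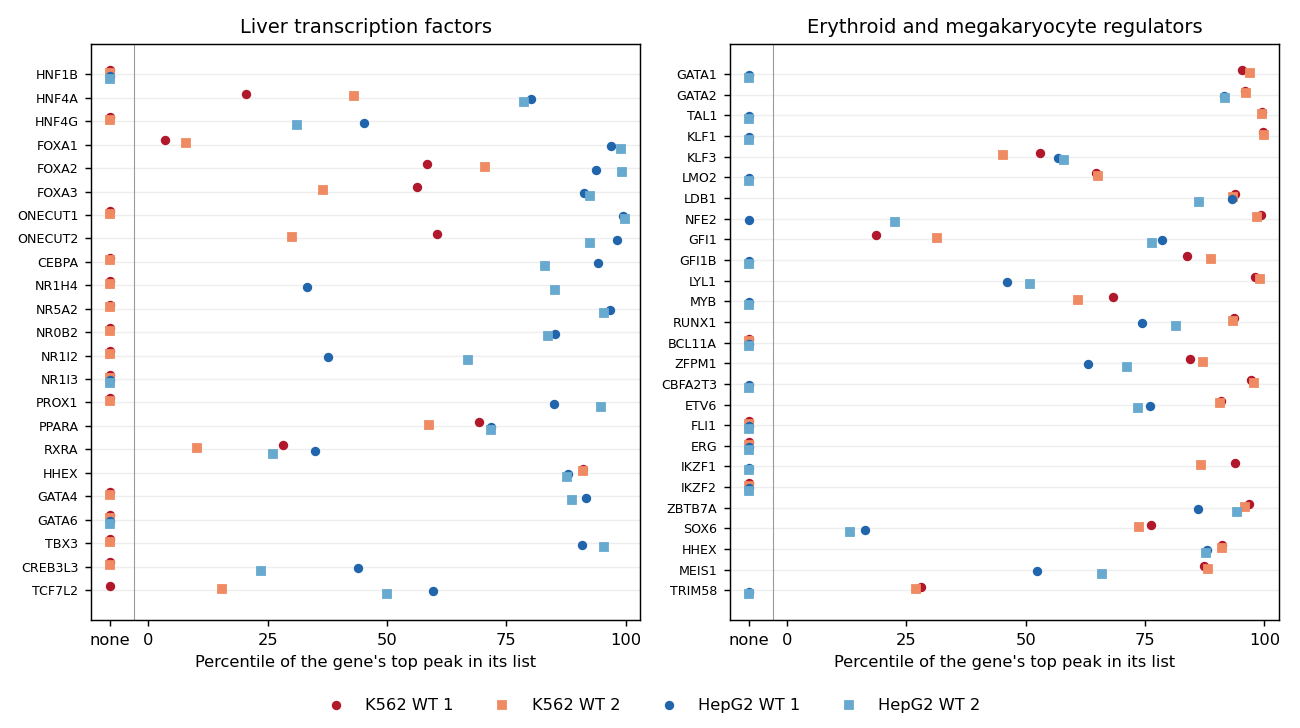
Percentile of the highest peak of each gene in its library's list (horizontal axis; none marks no peak) for the liver transcription factors (left) and the erythroid and megakaryocyte regulators (right), one symbol per WT library. Of the factors drawn, 11 in the liver panel have peaks only in HepG2 (blue) and 9 erythroid regulators only in K562 (red).

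Of 40 erythroid proteins, 19 were K562-only, 1 was HepG2-only and 4 had peaks in all 4 libraries. The membrane skeleton genes SPTB (beta-spectrin) and ANK1 (ankyrin) had tops of 98.8 and 98.4 and of 97.0 and 99.1 in K562. GYPC, a glycophorin, was at 97.3 and 97.5 in its 3′ UTR. The fetal and embryonic globin genes HBG2 and HBE1 had 19 and 21 and 19 and 19 peaks in K562, but their annotated bodies overlap on the same strand, so that the same peaks were counted for both, and HBG1 and HBG2, HBA1 and HBA2, and GYPB and GYPE are near-identical copies whose reads may be split. HBB, the adult beta-globin gene, had no peak in any of the 4 libraries. RHEX, a regulator of erythropoietin signalling, was the HepG2-only member, at 28.9 and 77.7. EPOR, the erythropoietin receptor gene, had peaks in all 4 libraries, at 96.8 and 97.1 in K562 and at 17.7 and 29.2 in HepG2.

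Haematopoietic signalling genes were K562-only in 18 of 40 cases, HepG2-only in 0, and 8 had peaks in all 4 libraries. PTPN7, a tyrosine phosphatase of blood cells, was at 98.8 and 98.3 in its last exon, and the Ets factor gene SPI1 at 87.3 and 88.6. JAK2, the kinase that serves the erythropoietin receptor, had 17 and 17 peaks in K562 (tops of 94.6 and 93.0) and 1 and 1 in HepG2 (7.10 and 19.9). SOCS2, an inhibitor of cytokine signalling, was K562-only (87.6 and 88.3), while its relative SOCS1 had peaks in all 4 libraries at 72.9 to 78.1. BCR and ABL1, the genes fused in K562, had peaks in all 4 libraries, BCR with 6 and 7 peaks in K562 and 6 and 5 in HepG2. A list of 40 widely expressed genes was K562-only in 13 cases (32.5%) and HepG2-only in 0, so that the K562-only shares of 34.6%, 47.5% and 45.0% in the blood lists have to be set beside it. The widely expressed K562-only genes included ACTB, ENO1 and MALAT1, at percentiles no higher than 79.6. A further 13 of the 40 had a peak in HepG2 WT 2 and not in HepG2 WT 1. Without HepG2 WT 2 the widely expressed list counted 26 K562-only genes, and with lists of equal length it counted 8, against 8, 14 and 12 in the 3 blood lists and 16 HepG2-only liver transcription factors.

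Genes of the m6A machinery had peaks in all 4 libraries in 17 of 21 cases (81.0%, beside 30.9% of all protein-coding genes). That background includes the 44.6% of protein-coding genes without a peak in any of the 4 libraries. METTL16, a methyltransferase of U6 RNA, was at 99.8, 99.2, 98.2 and 98.1 in K562 WT 1, K562 WT 2, HepG2 WT 1 and HepG2 WT 2. ZC3H13, a zinc finger subunit of the writer complex, had tops of 97.9, 99.2, 97.5 and 96.3, but not all in the same region. Its exon 10 region was at 97.9, 99.2, 86.7 and 96.3, and its exon 11 region at 48.0, 10.9, 97.5 and 96.2. The reader gene YTHDF1 was at 97.6, 96.1, 96.2 and 95.9. For METTL16 and YTHDF1 the lines were within 4 points of each other, in 1 region each. METTL3 itself was at 89.7 and 87.4 in K562 and at 26.8 and 56.6 in HepG2. RBFOX2, an RNA-binding protein that the study examines as a partner of the writer complex, had 1 peak in each K562 library (48.1 and 65.4) and none in HepG2. TGFB1, a growth factor gene whose promoter RNA the study followed, had a shared region over its 5′ UTR (exon 1 of 7) at 96.8, 96.8, 95.6 and 93.0 in the same order. The eraser gene FTO had tops of 88.7 and 87.7 in K562 and of 88.8 and 86.1 in HepG2, not all in the same region.

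Within the 13184 shared regions, ranks of the -log10 q were set against each other after conversion to normal units in each library, so that the median region is at 0. Of these regions, 1779 (13.5%) ranked higher in K562 and 2038 (15.5%) higher in HepG2 (limma, adjusted p under 0.05). Ranked within whole lists instead, the split was 3318 to 1033, and the median difference moved from 0.0434 to 0.382, so that a difference is relative to the shared regions only. The counts depended on single libraries: they were 405 and 728 without K562 WT 1, 360 and 628 without K562 WT 2, 3040 and 2781 without HepG2 WT 1, and 3243 and 3144 without HepG2 WT 2. Regions higher in K562 held GGACU in 34.0% of cases, those higher in HepG2 in 23.8%, and all shared regions in 27.5%. The 5′ UTR held 5.68% of the regions higher in K562 and 1.86% of those higher in HepG2, beside 3.71% of all shared regions. In the hairpin libraries, which the ranking did not use, 93.3% of the former and 61.7% of the latter had a peak in all 4 K562 libraries, beside 81.8% of all shared regions. The order was the same in NB4: 69.5%, 49.9% and 66.1% had a peak in all 6 libraries. The 2 sets also differed in height in K562 by their choice, with median percentiles of 86.9 and 49.0 in K562 WT 1.

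Among the regions that ranked much higher in K562, CISH, a STAT5-induced inhibitor of cytokine signalling, had one in its 3′ UTR (exon 3 of 3) at percentiles 98.6 and 98.5 in K562 and 16.3 and 12.2 in HepG2. The difference was 3.27 normal units (SE 0.23, limma adjusted p = 0.00423). RRBP1, a ribosome-binding protein of the endoplasmic reticulum, had a region in exon 3 of 25 with percentiles of 98.8 and 98.6 in K562 and 1.76 and 34.3 in HepG2, a difference of 3.41 (SE 0.44, limma adjusted p = 0.00660). APBA2, an adaptor of amyloid precursor protein, and PDIK1L, a kinase, also had coding regions of this kind, with differences of 3.23 and 2.82. CYP2R1, a vitamin D 25-hydroxylase, differed by 3.19 in intron 1. In all 5 genes both K562 values lay above both HepG2 values, but these regions were chosen for their large rank differences. AKAP1, a mitochondrial anchor of protein kinase A, differed by 3.01, but HepG2 WT 1 and 2 stood far apart there, at 25.9 and 85.3. TRMT12, TAOK3, UBXN4 and the noncoding gene ENSG00000278903 completed the 10 largest, and UBXN4 lost its call with ranks of the fold (limma adjusted p = 0.0514) and without K562 WT 2 (limma adjusted p = 0.0569).

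Among the regions that ranked much higher in HepG2, FOXA1, at 3.55 and 7.77 in K562 and at 96.9 and 99.0 in HepG2 over exon 2 of 2, differed by -4.19 (SE 0.24, limma adjusted p = 0.00423). ARHGEF16, a guanine nucleotide exchange factor, differed most, by -4.46 (SE 0.46, limma adjusted p = 0.00487), with 9.54 and 1.06 in K562 and 94.9 and 99.7 in HepG2, in intron 1. SLC22A18, an organic cation transporter gene in the imprinted domain of chromosome 11, was at 38.1 and 25.9 and at 99.8 and 99.9, a difference of -4.06. The K562 and HepG2 values of these 3 genes were far from overlapping, which goes with their choice by the largest differences. KCNQ1OT1, the imprinted antisense RNA of the same domain, had a region of 3438 bases at 3.03 and 2.38 in K562 and 93.5 and 84.4 in HepG2, a difference of -3.56. SETBP1 (-4.13) and HIVEP2 (-3.71), both encoding large nuclear proteins, had theirs in coding exons. RGPD8, CCZ1B, LINC03073 and ENSG00000275993 made up the 10, and RGPD8 and CCZ1B have near-identical copies elsewhere in the genome, so that their reads are uncertain.

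**Figure D5:**
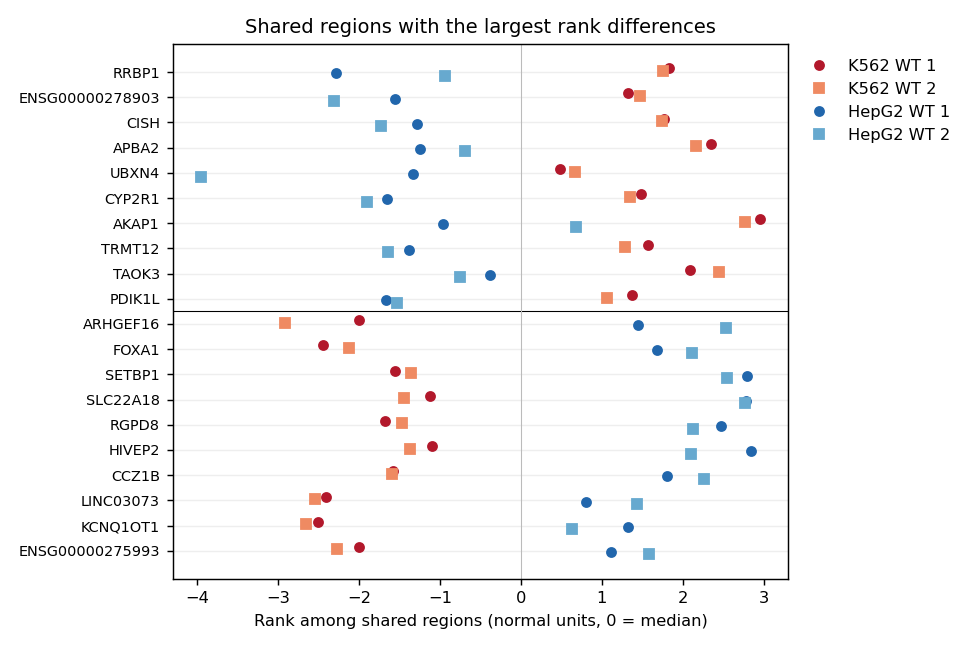
Rank of the -log10 q among shared regions, in normal units with the median at 0, for the 10 shared regions with the largest differences toward K562 (top) and toward HepG2 (bottom), one symbol per WT library. K562 (red) and HepG2 (blue) symbols do not overlap for any of the 20 genes, which were chosen for their rank differences. The HepG2 libraries are far apart for AKAP1, UBXN4 and RRBP1.

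Of the liver transcription factors, 8 had 11 shared regions, of which 6 ranked higher in HepG2 and 0 higher in K562. Beside FOXA1 these included ONECUT2 (-2.48), FOXA2 (-2.24), FOXA3 (-2.06) and HNF4A (-1.02) in normal units, each in the last exon of its gene. Of the 16 shared regions of erythroid regulators, 2 ranked higher in K562 and 1, in the 3′ UTR of GFI1, a repressor of myeloid and lymphoid cells, higher in HepG2 (-1.9). The former were in LYL1 (2.22, SE 0.21, limma adjusted p = 0.00450) and SOX6 (0.81, SE 0.22, limma adjusted p = 0.0408). Of the 8 shared regions of erythroid proteins, 3 ranked higher in K562 and 0 higher in HepG2. Among these 3, EPOR ranked higher in K562 by 2.55 (SE 0.19, limma adjusted p = 0.00423), over its last coding exon (exon 8 of 8). Of 34 shared regions in m6A machinery genes, 3 ranked higher in K562 and 6 higher in HepG2, the former including METTL3 exon 3 (1.19) and the latter 3 intronic regions of FTO (-0.81, -0.69 and -1.30) and ZC3H13 exon 11 (-3.07). The shares of both directions over all shared regions are those given above.

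Some genes carried many line-only regions along their introns. PTPRN2, a phosphatase-like protein of secretory vesicles on chromosome 7, had 64 HepG2-only regions, 64 of them intronic, with 68 and 80 peaks in HepG2 and none in K562. SHANK2, a postsynaptic scaffold, had 27, EDA, the ectodysplasin gene, 26, and MAGI2, a membrane scaffold, 21. PPP1R9A and TBC1D16 had 17 each. In K562 the noncoding gene MIR3667HG on chromosome 22 had 57 K562-only regions, with 62 and 62 peaks in K562 and none in HepG2, LINC00534 had 37, and CCDC26 and EPIC1 had 36 each. ADGRV1, an adhesion G-protein-coupled receptor, had 33 K562-only regions, of which 20 were in introns. Regions of a gene share its transcript and are not independent of each other.

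Neighbouring genes were line-only together at several loci, which were singled out after their values were seen. On chromosome 13, 33 HepG2-only regions followed each other from 112976717 to 113161552 over MCF2L and the coagulation genes F7, F10 and PROZ, with no summit of any of the 6 K562 lists in between. On chromosome 14, 32 HepG2-only regions from 94272576 to 94615180 took in SERPINA10, SERPINA11, SERPINA4, SERPINA5 and SERPINA6, protease inhibitors and a hormone carrier made by liver. On chromosome 9, 22 HepG2-only regions from 21842943 to 22440202 lay in and around MTAP and CDKN2B, and no K562 list had a summit between 21540914 and 26842465. K562 is known to carry a deletion on the short arm of chromosome 9 that includes CDKN2A, whose part in these values was not tested. The K562-only run with the most regions, against the 2 HepG2 lists, held 96 regions on chromosome 21 between 9344744 and 14076450. LINC01667, annotated as a transcribed processed pseudogene, held 33 K562-only regions there, so that the placing of reads in this run is uncertain. A run of 53 regions on the X chromosome from 151975968 to 153059225 took in the cancer-testis genes MAGEA2, MAGEA3, MAGEA6 and MAGEA12, near-identical copies in part. By chromosome, K562-only regions outnumbered HepG2-only regions 3.79 to 1 in all, from 1.47 on chromosome 20 to 7.08 on chromosome 19.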

How the data were processed

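m6A MeRIP-seq of rRNA-depleted caRNA was compared between 2 K562 WT and 2 HepG2 WT libraries. Per the labels and the study's methods, the authors trimmed reads with Trimmomatic 0.39, aligned them to hg38 with HISAT2 2.1.0, split strands with SAMtools 1.9 and called peaks per library and strand with MACS2 (genome size 1.3e8). Whether the input served as background is not given in the sources used here. The deposited peak lists hold a score, a fold (ratio) at the summit, −log10 p and −log10 q values, and a summit offset. Input libraries were not analysed here.

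Summits were assigned to GENCODE v44 canonical transcripts, with antisense peaks within 1000 bases upstream of a start and peaks within 5000 bases of a gene end kept apart. Peaks overlapping by at least 1 base were merged by strand. Percentiles are of the −log10 q within a list. Gene parts and recovery were compared by exact permutation tests with Benjamini-Hochberg adjustment. Ranks over shared regions were fitted with limma 3.58.1 in R 4.3.3 over all shared regions, and adjusted over all of them. The fit was also run on simulated data with the same spread in every library, which does not cover lines of unequal spread. Python 3.11.15, scipy 1.17.1 and pysam 0.24.0 were used. Genes named were the members of 10 gene lists, the 12 genes per line with the highest line-only regions, the 8 with most line-only regions, the 10 per direction with the largest called rank difference, and RBFOX2, TGFB1 and the SOCS genes as context. Some members are counted but not reported here by name, and are left out of the plot of list members. Members and lists were chosen with earlier results of these data known. Depth is a quantity recovered from fold and −log10 p and not a count of reads. Alternatives were a −log10 q of at least 5, equal list lengths, an overlap of at least 50 bases, merged summit windows, other ranks, a replicate block, and each library left out.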

Additional observations from a re-analysis of the deposited data

How the results depend on the processing

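Stricter −log10 q, an overlap of at least 50 bases and merged summit windows kept all region and gene counts within 1.5 times. Equal list lengths gave 8514 K562-only regions and 1422 K562-only protein-coding genes, and turned the share differences downstream of a gene end (-0.574 points) and antisense in a gene (-0.769). Leaving out each library gave 6009 to 9422 HepG2-only regions, 360 to 3243 shared regions higher in K562 and 628 to 3144 higher in HepG2. Whole-list percentiles gave 3318 and 1033. Control libraries alone gave recovery differences of 37.8, -8.36 and 12.5 points, where p cannot go below 0.100. Of the 20 shared regions named, 0 reversed and 2 of 217 values under 11 alternatives, both of UBXN4, lost the call. Over the shared regions, ranks correlated at 0.956 between the K562 libraries and at 0.837 between the HepG2 libraries. With a HepG2 library left out, the residual spread of the limma fit came from the K562 pair alone, and the other way round. The cause of these shifts was not tested.

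Same-numbered libraries of the 2 lines did not deviate together (correlation of deviations -0.00177 over 13184 regions), so the numbers were not taken as pairs. With a replicate block, limma called 1826 regions higher in K562 and 1952 higher in HepG2, and the GGACU difference, which pairing cannot move, was 2.77 points (exact sign-flip test over 2 pairs, p = 0.5, the smallest possible). With 2 libraries per line, the tests of shares could not pass the threshold. Peak lists hold no reads outside peaks, so a missing peak at this depth does not show that m6A is absent.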
